A study of Mus musculus with 6 samples.

Results

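The genes described here encode the steps by which the heart takes up and burns ketone bodies: Bdh1, Bdh2, Oxct1, Acat1 and Slc16a1. They were taken by gene name from the deposited table, in which all 5 were present among 24602 genes. RNA was measured in the left ventricle of wild type mice 5 weeks after transverse aortic coarctation (TAC), a narrowing of the aorta that loads the ventricle with pressure, or after a sham operation. There were 6 poly(A)-selected libraries, 3 sham and 3 TAC. Strain, age and sex are not stated here, nor whether the 6 samples are 6 different mice. The p-values below therefore rest on the variation among these samples alone, part of which may be technical. In such bulk tissue, fewer cells of a type and less RNA per cell cannot be told apart.

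Ketone bodies are made in the liver from fatty acids and are carried in blood to the heart, which oxidises them. Slc16a1 encodes a monocarboxylate transporter of the plasma membrane that moves lactate, pyruvate and ketone bodies together with a proton. In mitochondria, Bdh1 encodes the dehydrogenase that converts beta-hydroxybutyrate to acetoacetate, Oxct1 the transferase that moves coenzyme A from succinyl-CoA to acetoacetate, and Acat1 the thiolase that splits acetoacetyl-CoA into acetyl-CoA for the tricarboxylic acid cycle. Bdh2 encodes a cytosolic dehydrogenase that also carries the name hydroxybutyrate dehydrogenase.

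Of these genes Bdh1, at the dehydrogenase step, changed most. Bdh1 rose in TAC by 2.91 ± 0.32 on the log2 scale (SE), and Slc16a1 rose by 0.64 ± 0.15 (edgeR quasi-likelihood test, Benjamini-Hochberg adjusted over 8795 tested genes, adjusted p = 0.00954 and 0.0465). Of 16 alternative settings, the call of Slc16a1 was lost under 12 and that of Bdh1 under 1. Oxct1 and Acat1, the next 2 enzymes of the pathway, did not pass, and Bdh2 was too low for the test. Of the 5 genes 4 had the mean FPKM of 1 or more that was needed for testing, and 2 of those 4 passed, both higher in TAC. Over all tested genes 6.99% passed, 4.71% higher and 2.29% lower. FPKM, the deposited unit, is the number of fragments scaled by transcript length and by library size.

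Where transcription of the 2 genes that passed starts is shown first, because the deposited values are per gene and do not tell the starts apart. The windows run from 250 bases before to 50 bases after a RefSeq start site in GRCm38.p6, on the plus strand, 5′ to 3′. Bdh1 has 2 such windows, at chr16:31422047-31422346 and chr16:31428503-31428802, and Slc16a1 has 1, at chr3:104638414-104638713. Capitals mark matches, on either strand, to any of 4 motifs that do not overlap each other here: the E-box CACGTG, the nuclear receptor half-site AGGTCA, the GC box GGGCGG and the TATA box TATAAA.
Bdh1 upstream start: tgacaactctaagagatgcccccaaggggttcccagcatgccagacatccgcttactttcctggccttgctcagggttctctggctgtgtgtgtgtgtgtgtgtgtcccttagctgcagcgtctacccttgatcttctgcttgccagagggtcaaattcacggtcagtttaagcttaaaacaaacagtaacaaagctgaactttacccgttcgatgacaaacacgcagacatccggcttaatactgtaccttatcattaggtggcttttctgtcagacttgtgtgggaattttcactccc
Bdh1 downstream start: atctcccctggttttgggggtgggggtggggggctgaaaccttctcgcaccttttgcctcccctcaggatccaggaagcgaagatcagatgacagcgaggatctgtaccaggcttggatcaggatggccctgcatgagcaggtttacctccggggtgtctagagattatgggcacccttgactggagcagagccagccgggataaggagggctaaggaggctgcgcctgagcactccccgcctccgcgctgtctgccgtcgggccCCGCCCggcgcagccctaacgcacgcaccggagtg
Slc16a1 start: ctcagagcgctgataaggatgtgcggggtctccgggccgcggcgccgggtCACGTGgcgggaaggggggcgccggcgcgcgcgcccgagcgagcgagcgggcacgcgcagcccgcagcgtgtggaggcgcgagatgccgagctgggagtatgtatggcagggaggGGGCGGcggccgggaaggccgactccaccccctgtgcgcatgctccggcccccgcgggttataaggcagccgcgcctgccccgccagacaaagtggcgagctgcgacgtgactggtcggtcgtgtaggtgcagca
The upstream Bdh1 window held no match and was 48.3% G and C. The downstream window was richer, at 63.7%, and held 1 GC box, beginning at position 16 downstream of the start. The Slc16a1 window was 73.7% G and C, above 94.9% of all windows, and held an E-box beginning at -200 and a GC box beginning at -85 relative to the start. Of 32851 windows of this length, 7.15% held the E-box, 16.3% the half-site, 35.7% the GC box and 13.6% the TATA box. These are letter matches and not measured sites.

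Bdh1 lies on the plus strand of chromosome 16, from 31422280 to 31458901 in GRCm38, and is protein coding. GENCODE M21 gives it 7 transcripts, of which 5 are listed in its deposited record. The listed transcripts start between 31428748 and 31436091, all of them inside or after the downstream window. The transcript that starts at the upstream end, 31422280, is not among them, although the record's own coordinates begin there. The meaning of that list was not stated.

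Bdh1 measured 4.84, 5.27 and 9.35 FPKM in sham replicates 1 to 3 and 39.7, 56.1 and 34.8 FPKM in TAC replicates 1 to 3, the order kept below. Every TAC library lay above every sham library, as held for 11.6% of tested genes. The lowest TAC value was TAC replicate 3 and the highest sham value sham replicate 3. The means were 6.49 ± 2.49 and 43.6 ± 11.2 FPKM (SD, n = 3 each), a 6.72-fold difference. In counts scaled to library sizes adjusted by TMM (CPM), the means were 25.6 ± 10.1 and 192 ± 59.2. Only 30 tested genes, or 0.341%, had a log2 fold change of 2 or more, and Bdh1 held rank 8 of 8795 by its rise and rank 3 of the 4479 with a mean FPKM of 5 or more. Its call was lost without sham replicate 2 (log2 fold change 2.76, edgeR adjusted p = 0.0665), a fit in which 9 genes of all rose and 3 fell. Over the other 5 single-library omissions the log2 fold change ran from 2.64 to 3.28 and the gene passed.

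Of the exonic bases of Bdh1, 13.7% lie opposite an exon of Gm15743, an antisense gene, so reads of the pair may have been mixed unless counting was stranded. The Gm15743 counts were 26, 7 and 29 for the sham group and 124, 172 and 394 for the TAC group. That was between 0.496% and 3.97% of the Bdh1 count of the same library. The Bdh1 counts themselves were 1332, 1412 and 2439 for sham and 10393, 16182 and 9914 for TAC.

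**Figure D1:**
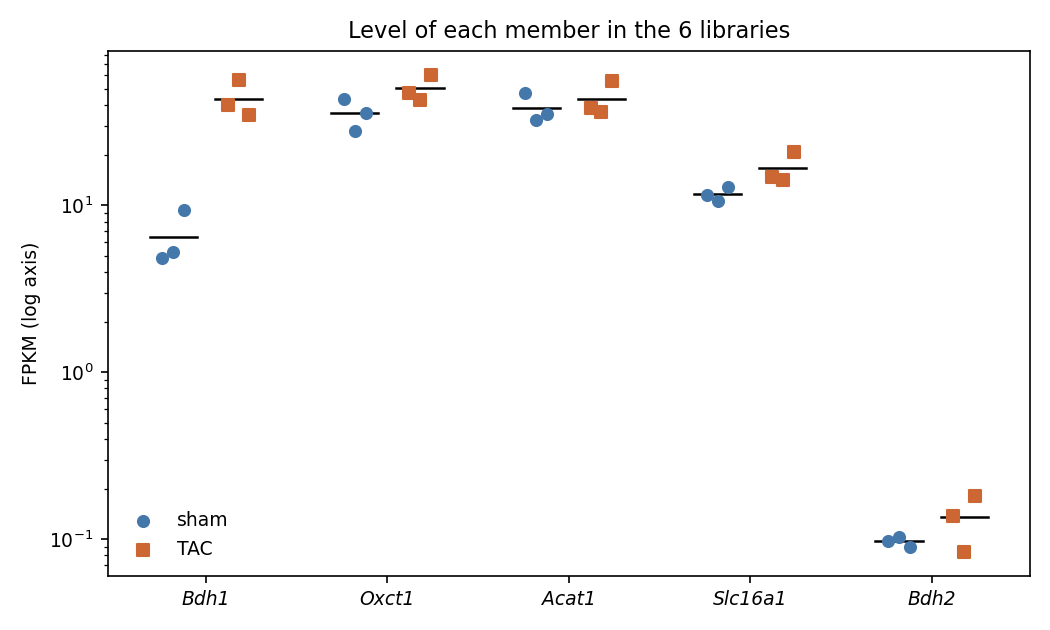
Deposited FPKM (log axis) of the 5 genes in each of 3 sham (circles) and 3 TAC libraries (squares), with black lines at the group means. The groups are separate for Bdh1 (4.84 to 9.35 against 34.8 to 56.1 FPKM) and Slc16a1 and overlap for Oxct1, Acat1 and Bdh2.

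Oxct1, on the plus strand of chromosome 15 (4026383 to 4155344), encodes the transferase that commits acetoacetate to oxidation and that the liver lacks. It measured 43.4, 28.04 and 36.0 FPKM in sham and 47.3, 42.6 and 60.7 FPKM in TAC. In FPKM the groups overlapped, since sham replicate 1 lay above TAC replicate 2. In CPM, the scale of the test, they were separate, at 166, 102 and 136 in sham and 205, 185 and 231 in TAC. How many of all tested genes were separate in CPM was not counted. The log2 fold change was 0.62 ± 0.19 (edgeR adjusted p = 0.0833), and DESeq2, the more liberal test on simulated data, called it (0.63 ± 0.21, adjusted p = 0.0247). Of its exonic bases, 12.6% lie opposite BC037032, whose counts were 0.299% to 0.796% of those of Oxct1.

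Acat1, on the minus strand of chromosome 9 (53580522 to 53610382), encodes the thiolase of the last step, which also serves isoleucine breakdown. It measured 47.1, 32.7 and 35.3 FPKM in sham and 38.5, 36.2 and 55.4 FPKM in TAC. Its groups overlapped through sham replicate 1, the highest of its group, and the difference was smaller than the spread between libraries (log2 fold change 0.31 ± 0.19, edgeR adjusted p = 0.338).

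Slc16a1, on the plus strand of chromosome 3 (104638668 to 104658462), has 1 transcript. It measured 11.6, 10.6 and 12.9 FPKM in sham and 14.7, 14.3 and 20.9 FPKM in TAC. Every TAC library lay above every sham library, by a narrow margin at TAC replicates 1 and 2. In CPM the means were 52.4 ± 5.99 and 81.8 ± 11.5 (SD, n = 3 each). The call was lost under 12 of 16 alternative settings, among them 5 of the 6 fits without 1 library (edgeR adjusted p between 0.0716 and 0.189), the exception being the fit without TAC replicate 3. The transcript is poor in G and C (42.9%, with 4.74% of tested genes lower), and once GC and length trends were removed per library the log2 fold change was 0.06 ± 0.13 (edgeR adjusted p = 0.823).

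The same adjustment moved the other tested members less than Slc16a1. Bdh1 transcripts average 55.2% G and C, near the median of tested genes, 52.8%, and its log2 fold change became 3.07 ± 0.33 (edgeR adjusted p = 0.00805) with the trends removed. Oxct1 (48.5% G and C) then had 0.51 ± 0.14 (adjusted p = 0.0723). Acat1 (45.2% G and C) turned to -0.09 ± 0.14 (adjusted p = 0.734).

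**Figure D2:**
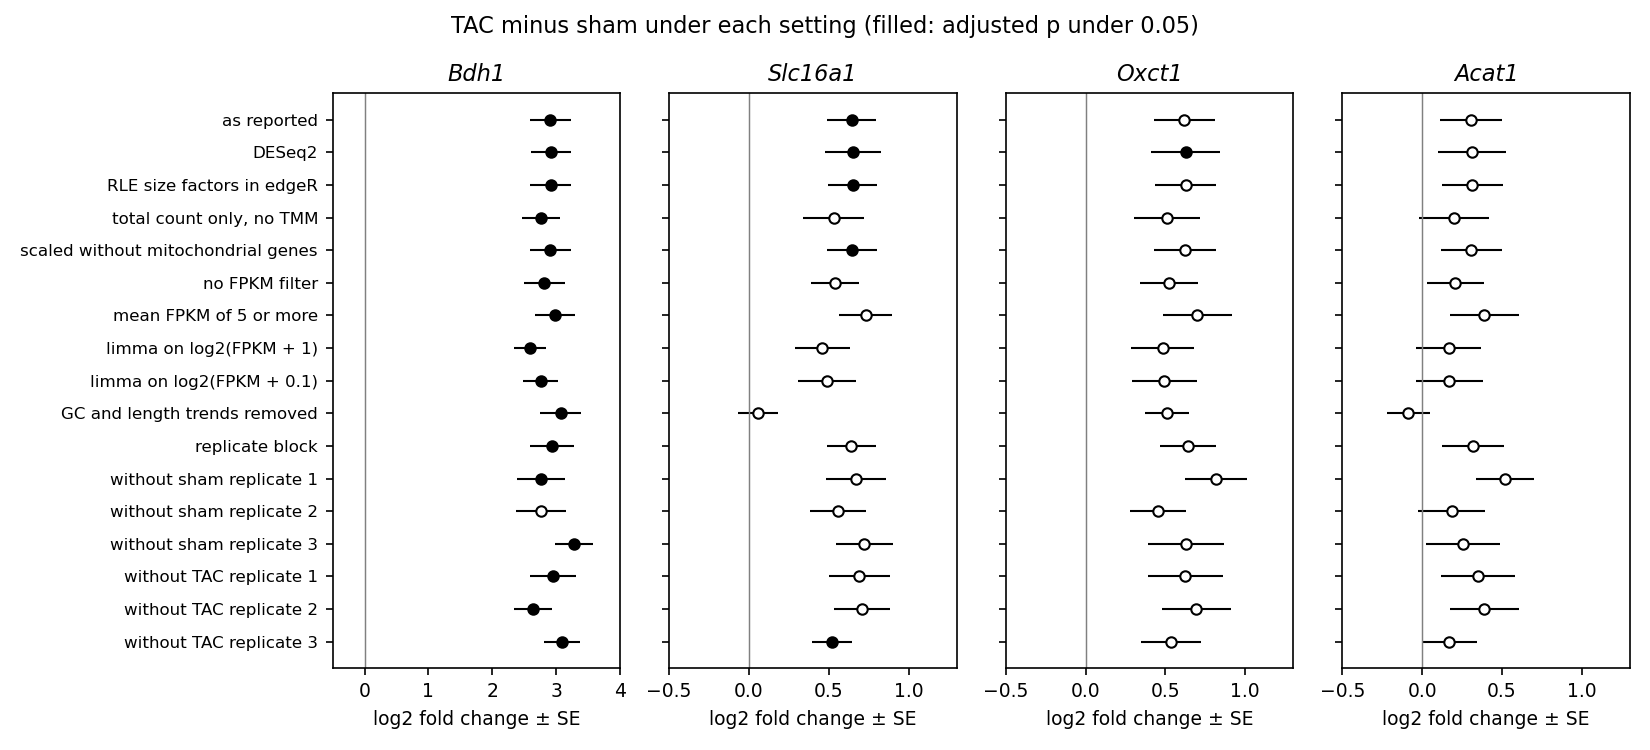
Log2 fold change, TAC minus sham, with its SE for 4 members (panels) under each processing setting (rows), filled where the adjusted p was under 0.05. The axis is wider for Bdh1, which stays between 2.59 and 3.28 and is open only without sham replicate 2, whereas Slc16a1 falls to 0.06 with the GC and length trends removed.

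Bdh2, on the plus strand of chromosome 3 (135281221 to 135304426), was near the limit of measurement. Its counts were 31, 31 and 28 for sham and 41, 27 and 59 for TAC, or 0.0980, 0.103, 0.0901, 0.139, 0.0840 and 0.182 FPKM in the same order. The groups overlapped, as TAC replicate 2 was the lowest of all. In a fit of 19504 genes without the FPKM minimum, where 2.51% passed, its log2 fold change was 0.47 ± 0.44 (edgeR adjusted p = 0.588). The estimate was about as large as its SE, and whether a change of that size could be called at such counts was not tested.

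The order of levels within the pathway differed between the groups. FPKM is a value per length, so levels of different genes can be set beside each other, apart from the GC and length trends that remain in it. In sham, Acat1 (38.3 ± 7.66 FPKM) and Oxct1 (35.8 ± 7.69) were highest, with overlapping ranges. Slc16a1 (11.7 ± 1.12) held rank 3 and Bdh1 rank 4 in every sham library. In TAC, the ranges of Oxct1 (50.2 ± 9.41), Bdh1 (43.6 ± 11.2) and Acat1 (43.4 ± 10.5) overlapped (SD, n = 3 each). Slc16a1 (16.6 ± 3.72) held rank 4 in every TAC library. Within single libraries, Oxct1 stood at 0.922, 0.859 and 1.02 times the level of Acat1 in sham. In TAC it stood at 1.23, 1.18 and 1.10 times, above Acat1 in every library. The change of this ratio was not tested. Bdh2 was lowest throughout. Bdh1 gave 4.52%, 6.87% and 9.99% of the summed FPKM of the 5 genes in sham and 28.3%, 37.6% and 20.2% in TAC.

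A ratio of 2 genes within a library does not depend on how libraries are scaled. It can still carry GC and length trends, and the ratios were not recomputed with the trends removed. Bdh1 stood at 0.111, 0.188 and 0.260 times the level of Oxct1 in sham and at 0.841, 1.32 and 0.573 times in TAC. Against Acat1 it stood at 0.103, 0.161 and 0.265 times in sham and 1.03, 1.55 and 0.629 times in TAC. The dehydrogenase transcript thus went from well below both partners to a similar level, above Oxct1 in TAC replicate 2 and above Acat1 in TAC replicates 1 and 2. The log2 ratio was higher in TAC by 2.29 against Oxct1, by 2.61 against Acat1 and by 2.29 against Slc16a1. Each of the 3 ratios separated the groups (exact 2-sided permutation test, p = 0.1, the smallest that 3 against 3 can give, and 0.1 after Benjamini-Hochberg adjustment over the 3).

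**Figure D3:**
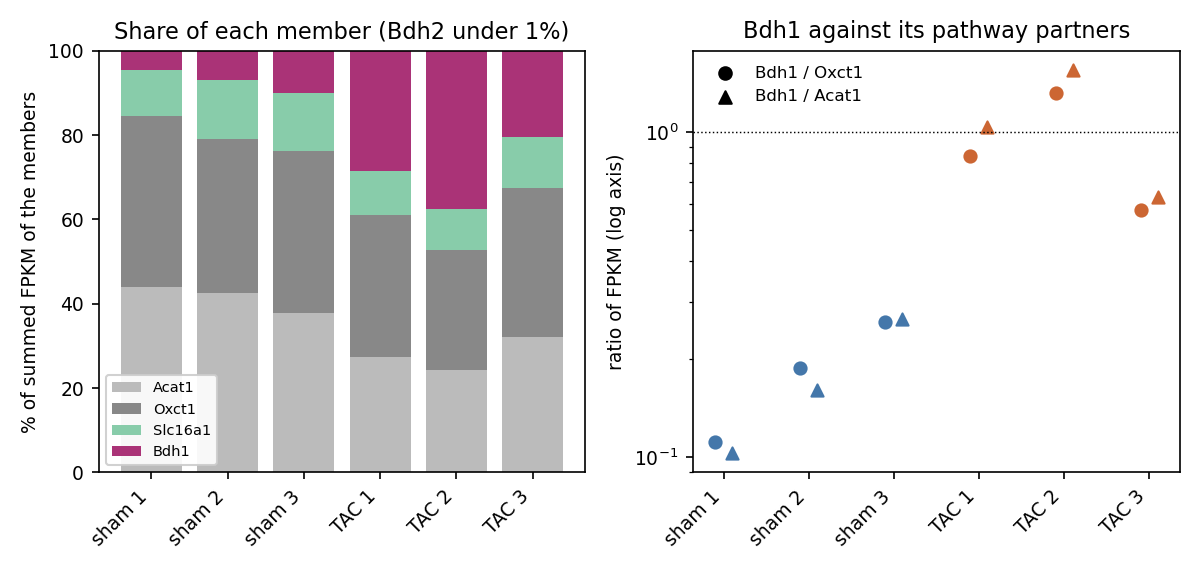
Left, percent of the summed FPKM of the 5 genes taken by each gene in the 6 libraries. Right, FPKM of Bdh1 divided by that of Oxct1 (circles) and Acat1 (triangles) on a log axis, with a dotted line at equal levels; sham is blue and TAC orange, and the highest sham ratio, 0.265, lies below the lowest TAC ratio, 0.573.

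TAC replicate 3 stood apart. It held the highest value of all 6 libraries for Oxct1, Acat1, Slc16a1 and Bdh2 and the lowest of the TAC libraries for Bdh1. Its fibroblast markers summed to 158 FPKM over 6 genes, against 58.8 and 54.5 in the other TAC libraries and 42.7 to 58.7 in sham. Its 4 macrophage markers summed to 198 FPKM, against 124 to 133 in the other TAC libraries and 109 to 128 in sham. Lyz2 made up 159 FPKM of that sum. Lyz2, Cd68 and Adgre1 were highest in this library, whereas Csf1r, at 16.6 FPKM, lay within the sham range of 13.5 to 17.2. Its 8 cardiomyocyte markers summed to 17633 FPKM, the lowest of the 6 libraries, against 22010 and 22976 in the other TAC libraries. The single markers did not all follow that sum. TAC replicate 3 was lowest of the 6 libraries for Myh6, Tnni3, Actc1, Myl2 and Myl3. It was highest for Ryr2 (15.3 against 6.58 to 9.59 FPKM) and Pln (469 against 369 to 443 FPKM), and above every sham library for Tnnt2. Without it, the log2 fold change was 3.09 for Bdh1 (edgeR adjusted p = 0.00196), 0.52 for Slc16a1 (0.0251), 0.53 for Oxct1 (0.0792) and 0.17 for Acat1 (0.516). The part of these markers in the values was not tested.

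The labelled tissue was checked by cell type markers. None of 8 cardiomyocyte markers passed with edgeR (0 at an unadjusted p under 0.05, 0 with DESeq2), and their summed FPKM was 25340 to 29333 in sham and 17633 to 22976 in TAC, without overlap. Among these markers Tnnt2, Pln and Ryr2 had positive log2 fold changes (0.35, 0.14 and 0.48). The others had negative ones, from -0.47 to -0.14. Of 6 fibroblast markers 2 rose (Dcn and Postn), as did 1 each of 5 endothelial (Tek) and 4 smooth muscle markers (Cnn1). So did 1 each of 4 pericyte (Rgs5), 4 atrial (Nppa) and 2 tested skeletal muscle markers (Acta1). Which cells the Nppa and Acta1 RNA came from was not tested. The other atrial markers, Sln, Myl7 and Myl4, had log2 fold changes of -1.45, -1.04 and -1.285 and did not pass. They varied widely within both groups. Myl7 measured 11.5, 99.3 and 69.0 FPKM in sham and 60.7, 2.61 and 13.3 FPKM in TAC. Sln and Myl4 ranked the libraries in the same order as Myl7. How much atrial tissue each library held was not tested. Ckm, the other tested skeletal muscle marker, had a log2 fold change of -0.23. Of the other pericyte markers, Pdgfrb and Kcnj8 had negative values and Abcc9 a positive one, and none passed. The part of these markers in the values of the members was not tested. The 4 hepatocyte markers, of the organ that makes ketone bodies, were near zero (summed FPKM 0.245 to 0.906 and 0.704 to 0.951), with Apoa1 listed at 0 in sham replicate 2 and Ttr and Serpina1a in sham replicate 1. The 4 erythroid markers, of cells that also carry the Slc16a1 transporter, summed to 411 to 1295 FPKM in sham and 855 to 1749.5 in TAC. No erythroid marker passed among 3 tested with edgeR (2 at an unadjusted p under 0.05, 1 with DESeq2), and the part of red cells in the Slc16a1 values was not tested. The libraries held 64023153 to 69992502 estimated counts. Genes of the mitochondrial chromosome took 14.8% to 19.2% of them in sham and 22.6% to 29.2% in TAC. Every TAC FPKM lay below every sham FPKM for 25.4% of tested genes. The part of the mitochondrial share in the members' FPKM was not tested; leaving those genes out of library sizes gave a log2 fold change of 2.91 for Bdh1 and 0.64 for Slc16a1.

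No other tested gene of ketone metabolism passed. Among 7 genes of ketone synthesis and of cytosolic acetoacetate use, 4 were tested and none passed with edgeR (1 at an unadjusted p under 0.05, 0 with DESeq2). Their median log2 fold change was -0.19, against -0.01 over all tested genes.

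Among 16 other monocarboxylate carriers and chaperones, 14 were in the table, 4 were tested and none passed with edgeR (0 at an unadjusted p under 0.05, 0 with DESeq2). Their median log2 fold change was -0.10. Bsg encodes basigin, the partner that brings the Slc16a1 transporter to the membrane. It was abundant, at 1085, 1310.2 and 1395 FPKM in sham and 1258, 1329 and 1077 FPKM in TAC, with fully overlapping groups (0.11 ± 0.18, edgeR adjusted p = 0.744). Slc16a3, which encodes the lactate exporter of glycolytic cells, measured 0.651, 0.662 and 0.570 FPKM in sham and 0.808, 0.670 and 0.811 FPKM in TAC. Its TAC values lay above its sham values, narrowly at TAC replicate 2, and it was below the level needed for testing.

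Lactate and pyruvate share the Slc16a1 carrier, and of 13 tested genes of their handling none passed with edgeR (4 at an unadjusted p under 0.05, 3 with DESeq2). Their median log2 fold change was 0.04. The lactate dehydrogenase subunit gene Ldhb, typical of heart, had 1051, 1127 and 1268 FPKM in sham and 864, 921 and 763 in TAC (log2 fold change -0.28 ± 0.17, edgeR adjusted p = 0.329). DESeq2 called Pdk1, a pyruvate dehydrogenase kinase gene, higher and Ldha and Pdk2 lower, genes named after their values were seen. Over all 8795 tested genes DESeq2 called 1031 higher and 617 lower. Ldha was also lower with edgeR once the GC and length trends were removed and with limma at either pseudocount. Without TAC replicate 3, edgeR called 3 of the 13 lower, Ldha and Pdk2 among them, and none higher. That fit called 892 of all 8795 tested genes lower and 813 higher.

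The genes next to the transferase moved in both directions. The list held 9 genes around succinyl-CoA supply and acetyl-CoA use, subunits of succinate dehydrogenase among them. Of these 9, 2 rose, 2 fell and 5 did not pass (median log2 fold change -0.16). Sucla2, a subunit of the ligase that works on succinyl-CoA, rose from 13.5, 7.40 and 10.8 FPKM to 18.6, 16.0 and 20.0 FPKM. Dld, the shared lipoamide dehydrogenase subunit, rose from 16.4, 13.6 and 17.1 to 22.0, 22.5 and 22.2 FPKM. Cs, citrate synthase, which takes up acetyl-CoA, fell from 353, 374 and 357 to 182, 171 and 242 FPKM, and Dlst, the core subunit of the oxoglutarate dehydrogenase complex, from 87.4, 91.5 and 81.5 to 48.4, 46.8 and 59.6 FPKM. In FPKM the 4 genes, named because they passed the test, had separate groups. Of all tested genes, 11.6% had every TAC library above every sham library and 25.4% had every TAC library below. The log2 fold changes of Sucla2, Dld, Cs and Dlst were 0.92, 0.65, -0.73 and -0.61 (edgeR adjusted p of 0.0482, 0.0406, 0.0314 and 0.0358). Ogdh, the most abundant of the list, did not pass (log2 fold change -0.43 ± 0.16, edgeR adjusted p = 0.131). With the GC and length trends removed Cs and Dlst still passed, and Sucla2 (0.18, adjusted p = 0.533) and Dld (-0.16, adjusted p = 0.376) did not. Each of the 4 lost its call in 4 or 5 of the 6 fits without 1 library, sham replicate 2 always among them.

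Another list held 6 genes, mostly of other thiolases and the last steps of fatty acid oxidation, with a hydratase of leucine breakdown among them. Like Acat1 and Oxct1, they make or use acetoacetyl-CoA or related esters. Of these 6, 2 fell and 4 did not pass (median -0.40). Acaa2, a mitochondrial thiolase of fatty acid oxidation, fell from 1009, 1187 and 1069.9 to 602, 558 and 498 FPKM (log2 fold change -0.82 ± 0.16). Hadh, the short-chain hydroxyacyl-CoA dehydrogenase, fell from 130.0, 141 and 134 to 74.7, 69.2 and 95.4 FPKM (-0.62 ± 0.13, edgeR adjusted p of 0.0323 and 0.0367 for Acaa2 and Hadh). Both also fell with the trends removed, and neither passed without sham replicate 1, 2 or 3 or TAC replicate 1 or 2.

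Of 13 ketone receptors and regulators, 9 were tested and 1 fell with edgeR (5 at an unadjusted p under 0.05, and 2 higher and 2 lower with DESeq2). Their median log2 fold change was 0.07. Without TAC replicate 3, edgeR called 4 of the 9 lower and their median was -0.23, in a fit that called 892 of all 8795 tested genes lower. Esrra, which encodes an orphan nuclear receptor that drives mitochondrial genes, measured 32.5, 42.5 and 37.0 FPKM in sham and 22.7, 22.6 and 24.0 FPKM in TAC (log2 fold change -0.54 ± 0.13, edgeR adjusted p = 0.0488). Its call was lost in all 5 omissions of a library other than TAC replicate 3 and with the trends removed (-0.34, adjusted p = 0.102). The hydroxybutyrate receptor gene Hcar2 was near zero, at 0.0873, 0.0598 and 0.0614 FPKM in sham and 0.0442 FPKM in TAC replicate 3, and was listed at 0 in the other TAC libraries.

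**Figure D4:**
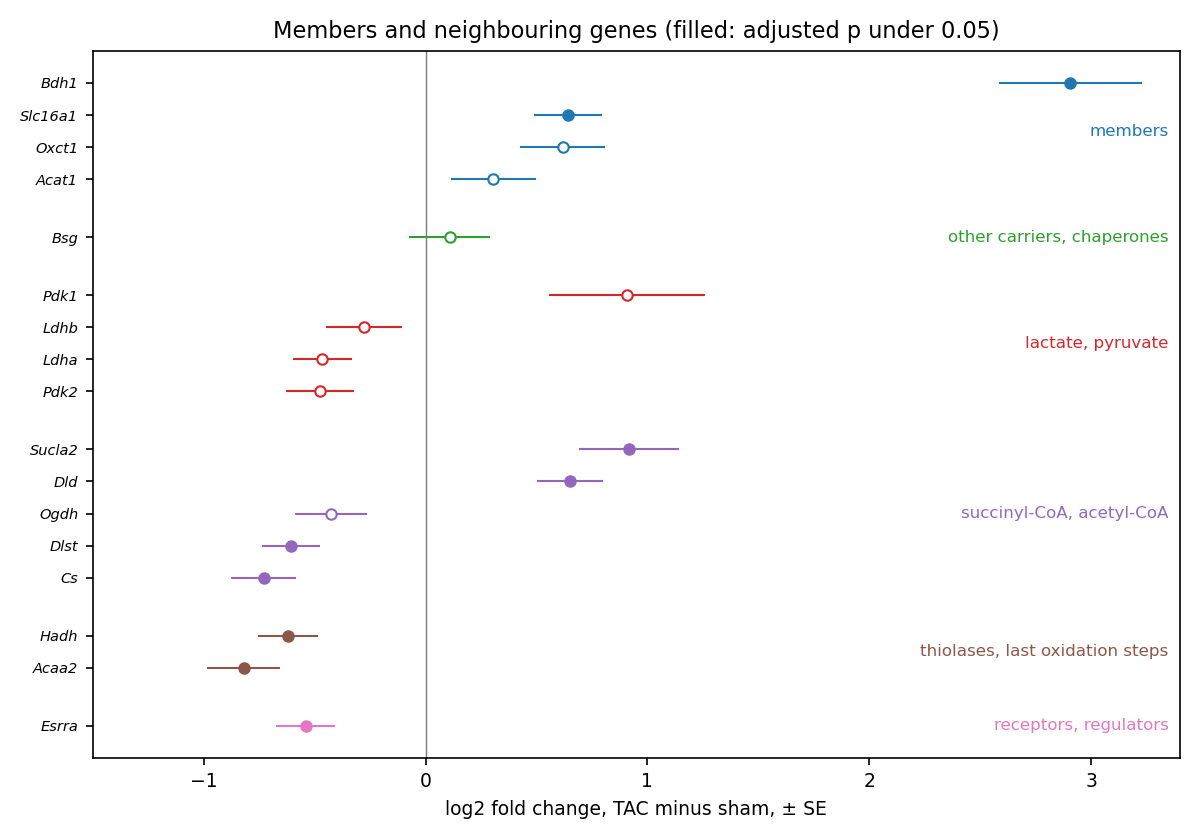
Log2 fold change, TAC minus sham, with its SE (x axis) for each tested member and each tested gene of the neighbouring lists named here (y axis, coloured by list), filled where the edgeR adjusted p was under 0.05. Bdh1, at 2.91, lies far to the right of every other gene shown, the next of which is Sucla2 at 0.92.

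Genes with the pattern most like each member were found by Pearson correlation of log2 CPM over the 6 libraries, among 4207 named genes at a mean FPKM of at least 5 (predicted and clone-named genes left out), as a description only, since the group difference and each library's scaling enter every such value. The gene most like Bdh1 was Cpxm2, a secreted carboxypeptidase-like protein gene (r = 0.998), which rose by 2.64 ± 0.27 (edgeR adjusted p = 0.00861, and 0.0501 without sham replicate 2). The next were Esd (0.996) and the proteasome subunit gene Psma6 (0.993), whose patterns were alike in shape but whose changes were far smaller and did not pass (0.39 ± 0.12 and 0.45 ± 0.12, edgeR adjusted p of 0.0871 and 0.0617). With the trends removed the change of Psma6 was -0.01.

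For Oxct1 the genes most alike were Etfa, an electron transfer flavoprotein subunit of fatty acid oxidation (r = 0.997), and the chaperone genes Hspa9 (0.996) and Hspa5 (0.996). For Acat1 they were the titin gene Ttn (0.990), Unc50 (0.986) and Sfr1 (0.985), and for Slc16a1 Rnase4 (0.998), Clip1 (0.994) and Ivns1abp (0.991). None of the genes most like Oxct1 and Acat1 passed the test. The 3 most like Slc16a1 rose, by 1.23 ± 0.22, 1.05 ± 0.24 and 1.38 ± 0.28 (edgeR adjusted p of 0.0271, 0.0409 and 0.0323). Of 16 alternatives, Rnase4 lost its call under 4, Clip1 under 10 and Ivns1abp under 5.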

How the data were processed

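The submitters' processing notes name StringTie 1.3.4d, HISAT2 2.0.4, cutadapt 1.9 and the GRCm38 build. The authors deposited FPKM and estimated counts per gene for each library, per the file headers. The making of the counts and their strandedness were not given in the sources used here. Of 11295 genes with a mean count of 100 or more and no zero, 97.0% had a ratio of count to FPKM that, after a library factor, varied by under 0.02 between libraries, so the counts hold no isoform information beyond FPKM.

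The 8795 genes whose mean FPKM was at least 1 were tested with edgeR 4.0.16 (R 4.3.3; TMM, glmQLFit, glmQLFTest) on the counts, adjusted by Benjamini-Hochberg over those 8795 at a threshold of 0.05. The SE is the log2 fold change divided by the square root of F. Alternatives were DESeq2 1.42.0, limma 3.58.1 on log2(FPKM + 1) or log2(FPKM + 0.1), other scalings and filters, lowess offsets (span 0.3, 3 rounds) against trends over GC content and length (GENCODE M21), a replicate block and leaving out each library. On counts simulated for the comparison of TAC and sham (8795 genes, 100 changed 2-fold and 100 changed 4-fold), edgeR recovered 69% and 99% and 14 of its 182 calls were false, against 42 of 224 for DESeq2. Promoter windows came from RefSeq (GRCm38.p6), in which 4 of the 5 members had an entry.

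The members and lists were chosen with earlier results of these data known. Named genes were all members, the called genes and the most abundant gene of each list, and the 3 genes most like each tested member. Slc16a3, Hcar2, Ldha, Pdk1, Pdk2, the genes overlapping members and the single marker genes were added after their values were seen. The values of some list genes are not reported here.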

Additional observations from a re-analysis of the deposited data

How the results depend on the processing

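The rise of Bdh1 kept its direction under all 16 alternatives and its call under 15 (2.59 to 3.28). Slc16a1 did not pass with total counts only (0.53), without the FPKM minimum (0.54), with a mean FPKM of 5 or more (0.73), with limma at a pseudocount of 1 (0.46) or 0.1 (0.49) or with the GC and length trends removed (0.0563). Leaving out 1 library gave 2.64 to 3.28 for Bdh1 and 0.52 to 0.72 for Slc16a1. Oxct1 passed with DESeq2 (0.63). Signs reversed for Acat1 (-0.0872), Dld (-0.16), Psma6 (-0.00522) and Sfr1 (-0.11) with the trends removed. Bsg reversed with total counts (-0.0307) and with limma at either pseudocount (-0.0464 at both). The cause of these changes was not tested.

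The counts over all genes, 414 higher and 201 lower, became 1031 and 617 with DESeq2, 143 and 68 with a mean FPKM of 5 or more, 174 and 338 with limma at a pseudocount of 1 and 170 and 336 at 0.1. They were 157 higher with total counts only and 224 higher with the trends removed. Without 1 library they ran from 9 to 813 higher and from 3 to 892 lower. The lowest values came without sham replicate 2 and the highest without TAC replicate 3. Called genes were higher in TAC in 67.3% of cases, against 45.5% with total counts only, 34% with limma at a pseudocount of 1 and 55% with the trends removed. The median over all tested genes was -0.14 with total counts only and -0.13 and -0.16 with limma.

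Deviations from the group means of same-numbered sham and TAC samples correlated at -0.07, 0.13 and -0.03. Samples of different number gave -0.21 to 0.22. The value for replicate 2 was above 0.1, the level taken as a sign of pairing. With 3 samples per group these values cannot decide whether the numbers pair the samples, which the labels do not state. With the replicate block 141 genes were higher and 42 lower, Bdh1 had 2.94 (adjusted p = 0.0223) and Slc16a1 0.64 (adjusted p = 0.0659).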
